A study of Mus musculus with 12 samples.

Results

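The cytokine genes *Il10*, *Il22* and *Il24* of the IL-10 family and *Il31*, *Lif* and *Osm* of the IL-6 family and its relatives were followed through IL-2 withdrawal and renewed stimulation of mouse CD4 T-blast cells. They were chosen by gene name, 6 of the 24439 genes listed for each library. All 6 were among the 12442 genes over 1 TPM (a share of all transcripts, corrected for transcript length) in at least 1 of 12 libraries. *Il22* and *Il31* passed this filter only through stimulated cells, since neither was over 1 TPM in any of the 6 resting libraries.

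Both families act through cytokine receptors that carry JAK kinases and activate STAT factors, mostly STAT3. IL-10 family cytokines use paired receptor chains and either restrain immune cells, as IL-10 does, or speak to epithelia, as IL-22 and IL-24 do. LIF and oncostatin M signal through the shared chain gp130, the product of *Il6st*, while IL-31, a cytokine of itch made by activated T helper cells, pairs its own receptor with the oncostatin M receptor.

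The cells were CD4 T cells taken with CD4 microbeads from spleens of C57BL/6 C42 mice, which carry a fragment of the human *IL3/CSF2* locus in every group. All cultures had been activated with Concanavalin A for 40 h and expanded in IL-2 at 50 U/ml. T-blast cells were then kept in IL-2 (TB IL-2) or deprived of it for 16 h (TB IL-2nil), and parallel cultures of both kinds were stimulated for 2 h with PMA at 20 ng/ml and calcium ionophore (PMA/I), giving TB+ IL-2 and TB+ IL-2nil. RNA-Seq of total RNA after removal of ribosomal RNA gave 3 libraries per group, and since the labels do not say whether these came from separate mice or cultures, P-values measure only the spread between these samples, which may be technical.

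The libraries labelled TB IL-2nil replicate 3 and TB+ IL-2 replicate 3 stood apart from the other libraries of their labels. *Il31*, listed at 0 in the 5 other resting libraries, was at 320.1 TPM in the library labelled TB IL-2nil replicate 3 and at 0 in the library labelled TB+ IL-2 replicate 3, while the 2 other TB+ IL-2 libraries held 2075 and 1185 TPM. In the authors' own combined expression table the columns of these names each hold the values of the other library. Both were therefore placed in each other's group, and are called here by their labels. Counts of members called with the labels kept are given for every comparison. Values with the labels kept or with both libraries left out are given for some genes only. *Il31* is 1 of the members, so its split between resting and stimulated libraries is in part a product of this placement. The placement itself rests on all 1391 genes compared, from which members were not left out.

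Markers of CD4 T cells were present in every library. The sum of *Cd3e*, *Cd3g*, *Cd4*, *Lck* and *Cd28* was 1204 ± 22.4 TPM (SD, n = 3, as for all values with ± here) in TB IL-2, 1812 ± 59.8 TPM in TB IL-2nil, 1226 ± 94.3 TPM in TB+ IL-2 and 1628 ± 153 TPM in TB+ IL-2nil. Other cells gave far smaller sums. The 4 B cell markers listed in the files, led by *Cd79b* and *Cd79a*, summed to 8.94 ± 2.60 TPM in TB IL-2, 25.5 ± 3.59 TPM in TB IL-2nil, 2.97 ± 0.531 TPM in TB+ IL-2 and 8.57 ± 3.74 TPM in TB+ IL-2nil. Their mean sums were thus lower with IL-2 and lower after PMA/I, and their part in the results was not tested. *Cd8a* and *Cd8b1* of CD8 T cells summed to group means of 15.3 to 17.9 TPM, with replicate 1 the highest in every group, at 31.9, 22.1, 29.5 and 22.0 TPM in TB IL-2, TB IL-2nil, TB+ IL-2 and TB+ IL-2nil against 6.91 to 17.7 TPM in the other libraries. The 4 markers of NK and innate lymphoid cells, nearly all of it *Il1rl1*, the IL-33 receptor gene that T helper cells can also express, summed to 15.7, 29.4, 7.35 and 9.12 TPM in replicate 1 of TB IL-2, TB IL-2nil, TB+ IL-2 and TB+ IL-2nil and to no more than 2.80 TPM in any other library. *Mcpt4* and *Fcer1a* of mast cells and basophils and *Ncr1* of NK cells were listed at 0 in all 12 libraries, and *Lyz2*, *Csf1r* and *Cd14* of myeloid cells reached no more than 0.181, 0.433 and 0.267 TPM in any library, with group means of 2.49 to 4.11 TPM for the sum of 6 myeloid markers, led by *Cd68*. In such bulk samples, fewer cells of a type and less RNA per cell cannot be told apart.

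At rest in IL-2, *Osm* was the most abundant of the 6 transcripts and *Lif* the second, at 67.5 ± 21.5 and 35.3 ± 11.7 TPM, while *Il24* and *Il10* were at 1.50 ± 0.731 and 0.821 ± 0.341 TPM and *Il22* and *Il31* were listed at 0. After PMA/I in IL-2 the order was led by *Il31* at 1194 ± 877 TPM and *Lif* at 495 ± 400 TPM, followed by *Il10* at 81.0 ± 27.3 TPM and *Il24* at 61.6 ± 67.6 TPM, with *Osm* at 10.9 ± 4.11 TPM and *Il22* at 5.57 ± 3.86 TPM below them. The spread between the 3 libraries was as large as the difference between *Il31* and *Lif*, and between *Il10* and *Il24*, so their order within these pairs is not settled.

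**Figure D1:**
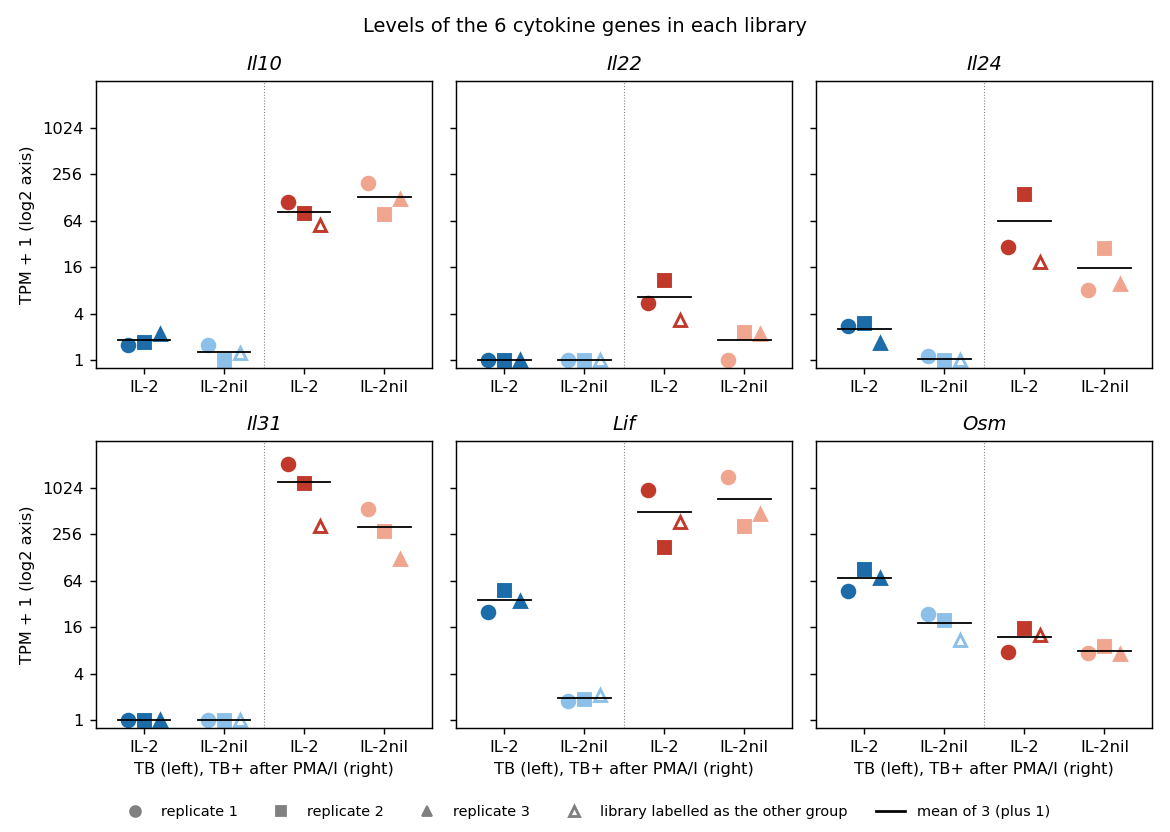
TPM + 1 on a log2 axis of the 6 cytokine genes in each of the 12 libraries, by group, with marker shapes for replicate numbers, open markers for the 2 libraries labelled as the other group and bars for the group means. *Il10*, *Il24*, *Il31* and *Lif* are higher in every TB+ library than in every resting one, *Il22* is above 0 only in TB+ libraries and is at 0 in 1 of them, *Osm* is lower in both TB+ groups than in TB IL-2, and the groups TB IL-2 and TB IL-2nil lie apart for *Lif* and *Osm*.

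Stimulation of cells kept in IL-2 changed all 6 genes past the threshold of more than 3-fold and an adjusted P under 0.05 (limma fit of log2(TPM + 1) over all genes, Benjamini-Hochberg). *Il10*, *Il22*, *Il24*, *Il31* and *Lif* rose and *Osm* fell. Of all genes tested, 7.04% were called in this comparison, 3.94% as higher and 3.1% as lower, and the median over all genes was a log2 difference of -0.22. *Il22* and *Il31* passed the filter through the groups in which they are high, and among the 4 other members all 4 were called, with a median of 3.81. In cells deprived of IL-2, *Il10*, *Il24*, *Il31* and *Lif* rose, where 18.5% of all genes were called, 7.78% as higher and 10.7% as lower, with a median of -0.38 over all genes. Without *Il22* and *Il31*, 3 of 4 members were called, with a median of 5.13. *Il22* at 0.77 ± 0.39 (log2 difference ± SE, adjusted P = 0.108 by limma) and *Osm* at -1.13 ± 0.35 (adjusted P = 0.0149, under 3-fold) were not called there. *Il22* was called with 0.1 TPM added, at 2.49 (adjusted P = 0.0303), and *Osm* for TPM with no further scaling, at -1.62 (adjusted P = 0.00234). Without both relocated libraries the counts were again 6 and 4, where 8.45% and 18.7% of all genes were called. With the labels kept, *Osm* alone was called in IL-2 and no member without IL-2, while 0.354% and 2.05% of all genes were called.

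Cells with and without IL-2 differed in *Lif* and *Osm* at rest. Both were higher in TB IL-2 than in TB IL-2nil, 2 of 6 members where 7.42% of all genes were called, 4.69% as higher and 2.73% as lower. After PMA/I, 1 of the 6 members, *Il22*, was called between TB+ IL-2 and TB+ IL-2nil, and it was higher with IL-2, where 3.62% of all genes were called, 3.21% as higher and 0.41% as lower. *Il22* passed the filter only through stimulated cells. Without *Il22* and *Il31*, 0 of 4 members were called between the stimulated groups, with a median of -0.03. These counts are from the fit without a replicate block. With the block, 3 of the 6 members were called between the stimulated groups, *Il22*, *Il24* and *Il31*, where 3.92% of all genes were called. *Il31*, like *Il22*, passed the filter only through stimulated cells. The interaction, which is the IL-2 difference after PMA/I minus that before, was called at an adjusted P under 0.05 for *Lif* alone, where 4.23% of all genes were called, 1.57% as higher and 2.66% as lower. With the labels kept, no member was called in these 3 comparisons, where 0.0964%, 0.121% and 0% of all genes were called. The comparisons within IL-2, within IL-2nil and across them share libraries, so they are not independent of each other.

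**Figure D2:**
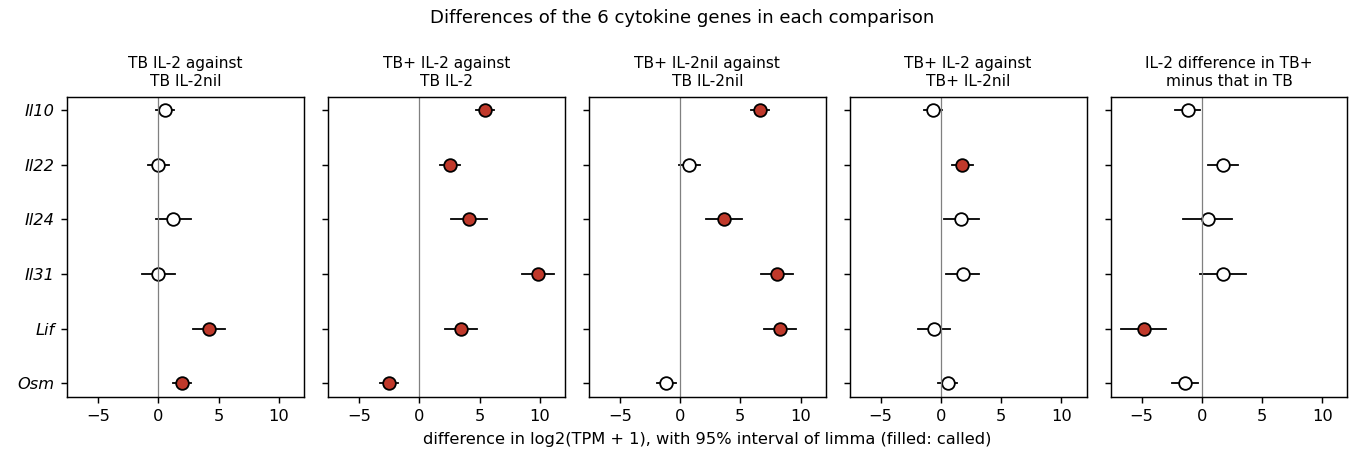
Differences in log2(TPM + 1) of the 6 cytokine genes in the 4 comparisons and in the interaction, as points with 95% intervals from the limma fit, filled where the gene was called. For stimulated against resting cells, the intervals of *Il10*, *Il31* and *Lif* lie far above 0 and that of *Osm* in IL-2 lies below 0. The *Lif* interaction lies between -6.68 and -2.93.

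*Il10* encodes IL-10, which limits inflammation by many immune cells, and is found at chr1:132916422-132921551, read from the plus strand (positions here are of mm9 in GENCODE M1). It was at 0.550, 0.708 and 1.20 TPM in TB IL-2 and at 0.567, 0 and 0.227 TPM in TB IL-2nil, the last value being from the library labelled TB+ IL-2 replicate 3. After PMA/I it was at 109, 79.7 and 54.3 TPM in TB+ IL-2, the last being from the library labelled TB IL-2nil replicate 3, and at 193, 77.0 and 119 TPM in TB+ IL-2nil. All 6 stimulated libraries were far above all 6 resting ones, while the groups with and without IL-2 overlapped both before and after PMA/I. Stimulation raised *Il10* by 5.45 ± 0.34 on the log2 scale in IL-2 (adjusted P = 1.51e-06, limma), a 98.7-fold ratio of the group means, and by 6.62 ± 0.34 without IL-2 (adjusted P = 2.51e-07). The IL-2 difference after PMA/I was -0.63 with a 95% interval from -1.38 to 0.12 (adjusted P = 0.213), and the interaction was -1.17 (interval -2.22 to -0.11, adjusted P = 0.178). Under the labels, both responses had the same direction but were not called, at 3.62 (adjusted P = 0.389) and 4.79 (adjusted P = 0.1).

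*Il24*, its neighbour at chr1:132778651-132784031 and read from the minus strand, encodes a cytokine known for effects on skin and tumour cells. The genes are 132.4 kb apart, with *Il19* and *Il20* of the same family between them. *Il24* was at 1.79, 2.04 and 0.666 TPM in TB IL-2 and at 0.136, 0 and 0 TPM in TB IL-2nil. The resting groups did not overlap, but the difference of 1.21 ± 0.66 on the log2 scale did not pass the test (adjusted P = 0.167, limma), and with 0.1 TPM added in place of 1 it did, at 3.45 (adjusted P = 0.00825). After PMA/I it was at 27.9, 139.5 and 17.4 TPM in TB+ IL-2 and at 7.07, 27.4 and 8.72 TPM in TB+ IL-2nil. Every stimulated library was above every resting one, and within each replicate number the library with IL-2 was the higher, by 3.95-fold, 5.10-fold and 2.00-fold. *Il24* rose by 4.12 ± 0.66 in IL-2 (adjusted P = 0.000915) and by 3.65 ± 0.66 without it (adjusted P = 0.000672). The IL-2 difference after PMA/I was 1.69 ± 0.66 and did not pass the test without a replicate block (adjusted P = 0.0931), but passed with the replicate number as a block (adjusted P = 0.0278) and for TPM with no further scaling, at 2.04 (adjusted P = 0.0469). Leaving out the library labelled TB IL-2nil replicate 3 gave 2.29 (adjusted P = 0.0491), leaving out TB+ IL-2nil replicate 2 gave 2.25 (adjusted P = 0.0405), and without both relocated libraries it was 2.29 and not called (adjusted P = 0.0673).

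*Il22* encodes IL-22, which acts on epithelial barriers, and its gene is at chr10:117641998-117647098, plus strand. It was listed at 0 in all 6 resting libraries, at 4.52, 9.85 and 2.34 TPM in TB+ IL-2 and at 0, 1.30 and 1.17 TPM in TB+ IL-2nil. The stimulated groups did not overlap, although the values without IL-2 were close to the 1 TPM filter. As the resting libraries are at 0, a fold is not given, and the size of each log2 difference depends on the TPM added before the log. The difference between TB+ IL-2 and TB IL-2 was 2.55 ± 0.39 (adjusted P = 0.000699, limma), and with 5 TPM added it was 1.02 and under 3-fold. TB+ IL-2 was above TB+ IL-2nil by 1.78 ± 0.39 (adjusted P = 0.00978) and by 2.18 without both relocated libraries (adjusted P = 0.0112). This call was lost without TB+ IL-2 replicate 2, at 1.33, without TB+ IL-2nil replicate 1, at 1.40, with 5 TPM added, at 0.81, and when only these 2 groups were fitted (adjusted P = 0.0525). A near-identical copy, *Iltifb*, lies 79.6 kb away and was listed at 0 in all 12 libraries, so reads shared by both genes may be counted at either, and the values of *Il22* are uncertain in that respect.

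*Il31* is at chr5:123930162-123932594, minus strand. It was listed at 0 in all 6 resting libraries and reached 2075, 1185 and 320.1 TPM in TB+ IL-2 and 531, 283 and 122 TPM in TB+ IL-2nil. No other member went from 0 to such a level, and in both stimulated groups replicate 1 was the highest and replicate 3 the lowest. The difference from the resting cells was 9.85 ± 0.61 on the log2 scale in IL-2 (adjusted P = 1.51e-06, limma) and 8.05 ± 0.61 without IL-2 (adjusted P = 2.66e-06), sizes that again rest on the 1 TPM added. With the labels kept they were 7.08 and 5.27 and not called (adjusted P = 0.292 and 0.209).

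The stimulated groups overlapped for *Il31*, but within each replicate number the library with IL-2 was the higher, by 3.91-fold, 4.19-fold and 2.62-fold. The difference of 1.80 ± 0.61 on the log2 scale (interval 0.45 to 3.15) did not pass the test without a block (adjusted P = 0.0582, limma) and did with the replicate block (adjusted P = 0.0198). It was also called for TPM with no further scaling, at 2.20 (adjusted P = 0.0131), without both relocated libraries, at 2.57 (adjusted P = 0.0169), without the library labelled TB IL-2nil replicate 3 alone, at 2.57 (adjusted P = 0.00976), and without TB+ IL-2nil replicate 1, at 2.31 (adjusted P = 0.0396). With the labels kept the sign turned, to -0.97 (adjusted P = 0.891), since the library at 0 then counts as TB+ IL-2. The replicate block raised the count of members called between the stimulated groups from 1 to 3, which were *Il22*, *Il24* and *Il31*, and the share of all genes called from 3.62% to 3.92%. Of these members, *Il22* and *Il31* passed the filter only through stimulated cells, which *Il24* did not.

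**Figure D3:**
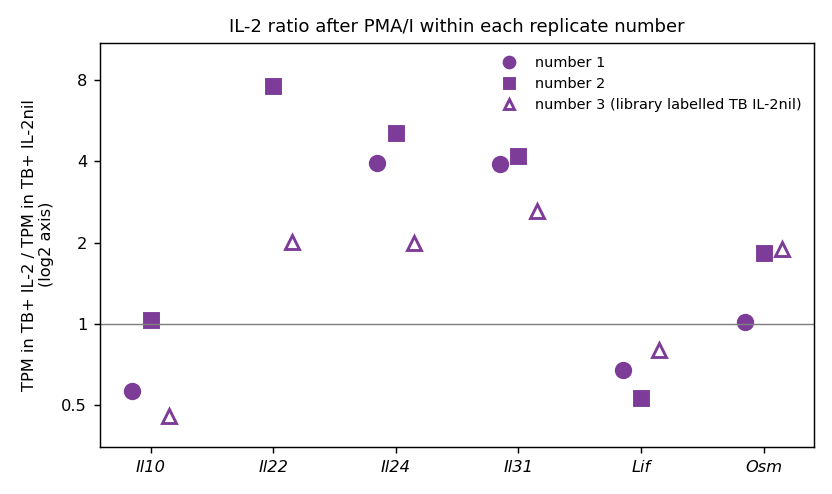
Ratio of TPM in TB+ IL-2 to TPM in TB+ IL-2nil on a log2 axis within each replicate number for the 6 cytokine genes, with open markers where the TB+ IL-2 value is from the library labelled TB IL-2nil replicate 3. *Il22* (numbers 2 and 3 only, as number 1 is at 0 without IL-2), *Il24*, *Il31* and *Osm* lie above 1 at every number shown, *Osm* from 1.02 to 1.89, and *Lif* lies below 1 at every number.

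*Lif* encodes leukaemia inhibitory factor, which keeps stem cells undifferentiated and is also made by activated T cells, and its gene is at chr11:4157560-4172517, plus strand. It was at 24.2, 47.5 and 34.1 TPM in TB IL-2, and withdrawal of IL-2 left 0.769, 0.871 and 1.08 TPM, the last from the library labelled TB+ IL-2 replicate 3. The resting groups were far apart, and the mean was 38.9-fold higher with IL-2. The difference was 4.20 ± 0.60 on the log2 scale (adjusted P = 0.000497, limma) and 4.26 without both relocated libraries (adjusted P = 0.004). With the labels kept it was 1.71 and not called (adjusted P = 0.818).

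After PMA/I, *Lif* was at 943, 173 and 370.2 TPM in TB+ IL-2 and at 1400.4, 327 and 461 TPM in TB+ IL-2nil. The groups overlapped, replicate 1 was by far the highest in both, and at every replicate number the library without IL-2 was the higher. Stimulation raised *Lif* by 3.49 ± 0.60 in IL-2 (adjusted P = 0.00137, limma), 14.0-fold in the means, and by 8.29 ± 0.60 without IL-2 (adjusted P = 2.02e-06), 805-fold in the means. The IL-2 difference after PMA/I was -0.60 with an interval from -1.93 to 0.73 (adjusted P = 0.515). The interaction was thus -4.80 ± 0.85 (adjusted P = 0.0198). It was -5.70 with 0.1 TPM added and -3.32 with 5 TPM added, both called. The call was lost for TPM with no further scaling, at -4.41 (adjusted P = 0.0557), without both relocated libraries, at -4.81 (adjusted P = 0.0824), without the library labelled TB IL-2nil replicate 3 alone, at -4.76 (adjusted P = 0.0541), without TB IL-2 replicate 2, at -4.58 (adjusted P = 0.0527), and without TB IL-2nil replicate 2, at -4.79 (adjusted P = 0.0571). In these fits the share of all genes called in the interaction was also low, at 0.00804%, 0.0324%, 0.845%, 0.764% and 0.678%, against 4.23%.

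The bases before the start of *Lif* and *Il31* are shown because these members had the largest differences after PMA/I without IL-2, whether 0.1, 1 or 5 TPM was added. *Lif* led with 1 and 5 TPM added, and *Il31*, which is at 0 in resting cells, with 0.1 TPM added (11.4 against 9.22). PMA/I acts on T cells through AP-1 and NFAT among others, and IL-2 through STAT5. The 250 bases upstream of the RefSeq starts (sequence table on GRCm38.p6, which has entries for *Il22*, *Il31* and *Lif*) were each found once in mm9, at chr11:4157321-4157570 on the plus strand for *Lif* and at chr5:123932633-123932882 on the minus strand for *Il31*, and are written 5′ to 3′ with a match to the AP-1 motif TGANTCA in capitals.
Lif: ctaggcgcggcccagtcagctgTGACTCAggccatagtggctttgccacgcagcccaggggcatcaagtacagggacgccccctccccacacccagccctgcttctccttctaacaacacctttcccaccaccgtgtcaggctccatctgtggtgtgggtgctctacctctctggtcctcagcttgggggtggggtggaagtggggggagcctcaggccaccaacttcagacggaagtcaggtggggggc
Il31: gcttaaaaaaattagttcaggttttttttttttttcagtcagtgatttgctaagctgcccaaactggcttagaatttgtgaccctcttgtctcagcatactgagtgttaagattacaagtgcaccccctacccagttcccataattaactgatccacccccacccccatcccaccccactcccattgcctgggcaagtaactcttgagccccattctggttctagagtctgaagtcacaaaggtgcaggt
The *Lif* window holds TGACTCA from 228 to 222 bases before the start, and 1 match to the NFAT core GGAAA on the minus strand from 129 to 125 bases before it, with no match to the STAT motif TTCNNNGAA. The *Il31* window holds no match to AP-1, to GGAAA or to the STAT motif, and the *Il22* window, not printed, holds a single GGAAA match. Both strands were searched, and the 3 motifs share no bases in these windows. Of 32851 such windows in the table, 6.75% held the AP-1 motif, 7.02% the STAT motif and 55.6% the NFAT core. These are matches of letters, and *Lif* has a further start downstream that the values per gene do not separate.

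*Osm*, which encodes oncostatin M, a cytokine of haematopoietic cells that acts on stromal cells and the liver, lies 16.5 kb upstream of *Lif* on the same strand (chr11:4136423-4141029). It was at 46.1, 89.1 and 67.3 TPM in TB IL-2 and at 22.8, 18.7 and 9.78 TPM in TB IL-2nil, the last from the library labelled TB+ IL-2 replicate 3. After PMA/I it was at 6.55, 14.7 and 11.6 TPM in TB+ IL-2 and at 6.42, 8.03 and 6.13 TPM in TB+ IL-2nil. Like *Lif* it was higher with IL-2 at rest, with no overlap, but unlike *Lif* its group means were lowest in stimulated cells. The groups TB+ IL-2 and TB IL-2nil overlapped. The IL-2 difference at rest was 1.95 ± 0.35 on the log2 scale (adjusted P = 0.00164, limma), 3.95-fold in the means. PMA/I lowered *Osm* by a log2 difference of -2.54 ± 0.35 in IL-2 (adjusted P = 0.000341), to a mean 6.17-fold lower. Without IL-2 the mean was 2.49-fold lower, which is under the 3-fold threshold. After PMA/I, *Osm* was higher with IL-2 at all 3 replicate numbers, by 1.02-fold, 1.83-fold and 1.89-fold, and the difference was 0.55 with an interval from -0.22 to 1.31 (adjusted P = 0.288). *Osm* differed little between the 2 relocated libraries and kept its direction under both placements, at 1.88 at rest (adjusted P = 0.0655) and -2.61 after PMA/I in IL-2 (adjusted P = 0.0213) with the labels kept.

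*Lif* and *Osm*, which are neighbours, were thus both higher with IL-2 at rest and moved in opposite directions after PMA/I in IL-2. Of the 5 other tested genes within 100 kb of either, none was called in any of the 5 comparisons. *Gatsl3*, 14.0 kb from *Osm*, was nearest, with log2 differences of -1.33 ± 0.28 in IL-2 (adjusted P = 0.00416, limma) and -1.30 ± 0.28 without IL-2 (adjusted P = 0.00195), both under 3-fold. *Tbc1d10a* was at -0.92 and -0.98, *Sf3a1*, which encodes a splicing factor, at -0.43 and 0.39, and *Ccdc157* and *Rnf215* were further away. Near *Il10*, *Mapkapk2*, which encodes a kinase downstream of p38, was 28.7 kb away and rose in both comparisons, from 93.7 ± 16.1 to 418 ± 131 TPM in IL-2 (2.11 ± 0.29, adjusted P = 0.000319) and from 50.6 ± 9.61 to 441 ± 151 TPM without it (3.06 ± 0.29, adjusted P = 8.81e-06). Near *Il31*, *Vps33a* at 46.2 kb fell by 1.93 on the log2 scale without IL-2 (adjusted P = 7.89e-06), and *Mlxip*, *Diablo*, *B3gnt4* and *Clip1* were not called. *Mdm1*, 35.9 kb from *Il22*, was not called either.

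**Figure D4:**
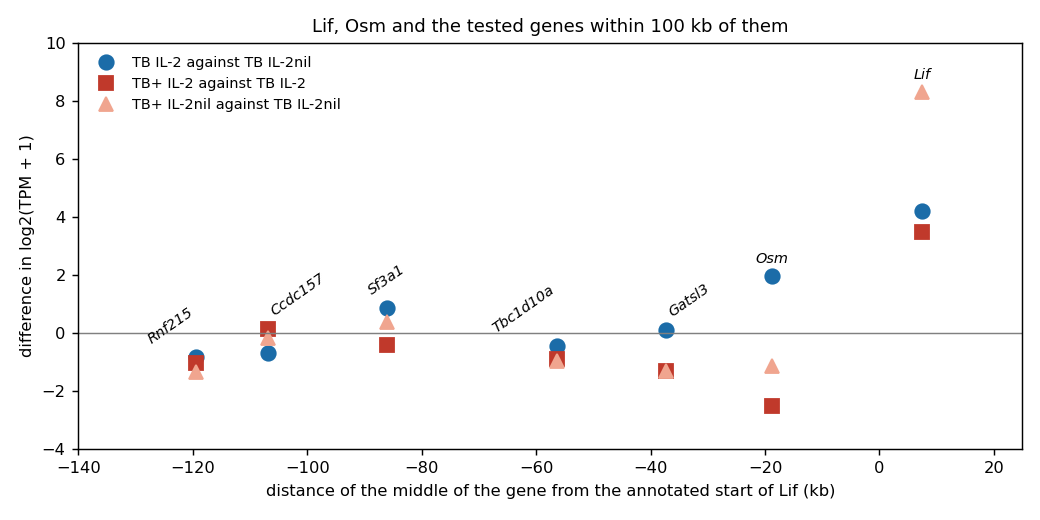
Differences in log2(TPM + 1) of *Lif*, *Osm* and the 5 other tested genes within 100 kb of them, against the distance in kb of the middle of each gene from the annotated start of *Lif*, for IL-2 at rest and for PMA/I in IL-2 and without it. *Lif* is above 0 in all 3 comparisons, *Osm* is above 0 at rest in IL-2 and below 0 after PMA/I, and the other genes lie between -1.35 and 0.87.

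Most other ligands of these families were absent or low. Of 5 further IL-10 family genes, *Il20*, *Iltifb*, *Ifnl2* and *Ifnl3* were listed at 0 in all 12 libraries, and *Il19*, which lies between *Il24* and *Il10*, was at 0.588, 0.0502, 1.29 and 0.443 TPM on average in TB IL-2, TB IL-2nil, TB+ IL-2 and TB+ IL-2nil, with no call. Of 8 further IL-6 family genes, 5 were tested and 1, *Il6*, was called, in both responses to PMA/I, where 7.04% and 18.5% of all genes were called with and without IL-2. It was at 0.195, 0 and 0 TPM in TB IL-2, at 0.398, 0 and 0 TPM in TB IL-2nil, at 63.1, 6.54 and 1.97 TPM in TB+ IL-2 and at 33.4, 3.16 and 3.62 TPM in TB+ IL-2nil. Every stimulated library was above every resting one, with replicate 1 far above the others. *Il10*, *Lif* and *Il31* were also highest in replicate 1 of both stimulated groups, as were *Il1rl1* and the CD8 T cell markers, whose part in these values was not tested.

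*Il6* rose by 3.41 ± 0.999 in IL-2 (adjusted P = 0.0217, limma) and by 2.96 ± 0.999 without IL-2 (adjusted P = 0.0235). Leaving out TB+ IL-2 replicate 1 gave 2.15 (adjusted P = 0.0651) and leaving out TB+ IL-2nil replicate 1 gave 2.01 (adjusted P = 0.0967). With 5 TPM added the values were 1.80 and 1.44 and neither was called (adjusted P = 0.0977 and 0.131). Both calls also ended with resting libraries left out. In IL-2 the adjusted P was then 0.0517, 0.0504 and 0.0574 without TB IL-2 replicates 1, 2 and 3, and without IL-2 it was 0.058 without TB IL-2nil replicate 2 and 0.0583 without the library labelled TB+ IL-2 replicate 3. *Clcf1*, a partner in a ligand for the CNTF receptor, and *Ebi3*, a subunit of IL-27 and IL-35, were highest in TB IL-2nil at 21.6 ± 13.0 and 13.3 ± 6.56 TPM against 9.27 ± 4.63 and 4.91 ± 1.09 TPM in TB IL-2, but did not pass the 3-fold threshold. *Cntf* and *Il11* were not called, and *Il27*, *Ctf1* and *Ctf2* were below the filter.

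Several receptor chains specific for these cytokines were at or near 0 in these cells. *Il22ra1*, the specific chain for IL-22, was listed at 0 in all 12 libraries. *Il20ra*, *Il22ra2* and *Ifnlr1* reached at most 0.126, 0.113 and 0.283 TPM in any library, and *Lifr*, *Osmr* and *Il31ra*, the specific chains for LIF, oncostatin M and IL-31, at most 0.316, 0.0364 and 0.113 TPM. *Cntfr* was under 1 TPM too. The IL-10 receptor chains were present. *Il10ra* was at 33.8 ± 11.9, 55.6 ± 16.5, 26.7 ± 5.54 and 23.5 ± 8.52 TPM in TB IL-2, TB IL-2nil, TB+ IL-2 and TB+ IL-2nil and was not called, and *Il20rb* was not called at group means of 0.875 to 2.95 TPM. Without IL-2, *Il10ra* was called lower after PMA/I for TPM with no further scaling and *Il20rb* with 0.1 TPM added. In these fits 25.5% and 27.9% of all genes were called, against 18.5%.

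*Il10rb*, the chain that the receptors for IL-10, IL-22 and interferon lambda share, fell after PMA/I. It was at 34.6, 43.3 and 30.9 TPM in TB IL-2 and at 38.2, 59.3 and 40.6 TPM in TB IL-2nil, against 4.41, 6.49 and 5.59 TPM in TB+ IL-2 and 5.48, 5.06 and 7.90 TPM in TB+ IL-2nil. No stimulated library reached a resting one. The log2 differences were -2.52 ± 0.23 in IL-2 (adjusted P = 1.81e-05, limma) and -2.71 ± 0.23 without IL-2 (adjusted P = 4.44e-06), so that the transcript of the ligand *Il10* and that of its shared receptor chain moved in opposite directions.

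*Il6st*, which encodes gp130, went the other way. It was at 19.8, 19.7 and 15.3 TPM in TB IL-2 and at 60.5, 61.0 and 55.5 TPM in TB IL-2nil, and after PMA/I at 145, 85.9 and 56.1 TPM in TB+ IL-2 and at 219, 169.9 and 146 TPM in TB+ IL-2nil. It was thus lower with IL-2 at rest, by -1.65 ± 0.29 on the log2 scale (adjusted P = 0.00151, limma), and rose after PMA/I in IL-2 by 2.23 ± 0.29 (adjusted P = 0.000243). The call at rest ended without TB IL-2 replicate 3, at -1.53, and with 5 TPM added, at -1.47, both under 3-fold. Without IL-2 the response was 1.56 ± 0.29 (adjusted P = 0.000775), just under 3-fold, and it was called as a rise without TB+ IL-2nil replicate 3 and with no filter on low values. At rest *Lif* and *Osm* were high where their shared receptor chain was low.

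*Il6ra*, the IL-6 binding chain, was at 20.8 ± 23.2, 94.3 ± 64.0, 32.4 ± 23.5 and 50.3 ± 47.1 TPM in the same order of groups. Its difference at rest of -2.43 ± 0.84 (adjusted P = 0.0392, limma) was past the threshold but rested on few libraries, since it was lost without TB IL-2 replicate 2, TB IL-2 replicate 3, TB IL-2nil replicate 1 or TB IL-2nil replicate 2, at -2.07, -1.95, -1.92 and -2.44 (adjusted P = 0.128, 0.136, 0.132 and 0.0835), and with 0.1 TPM added, with no filter and when only the 2 groups were fitted (adjusted P = 0.0518, 0.0848 and 0.052). *Il27ra* and *Il11ra1* were not called. With other settings, after PMA/I without IL-2, *Il27ra* was called lower for TPM with no further scaling and *Il11ra1* with 0.1 TPM added. In these fits 25.5% and 27.9% of all genes were called, against 18.5%. Over the 2 lists, 3 of 7 IL-10 family and 4 of 9 IL-6 family receptor chains could be tested. In the interaction, no receptor chain was called, while *Il6ra*, *Il11ra1* and *Il27ra* were called higher with the replicate block, where 11.9% of all genes were called against 4.23%. *Il11ra1* was also called without TB IL-2 replicate 1 and without TB+ IL-2nil replicate 3, where 630 and 1302 genes were called in all against 526.

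**Figure D5:**
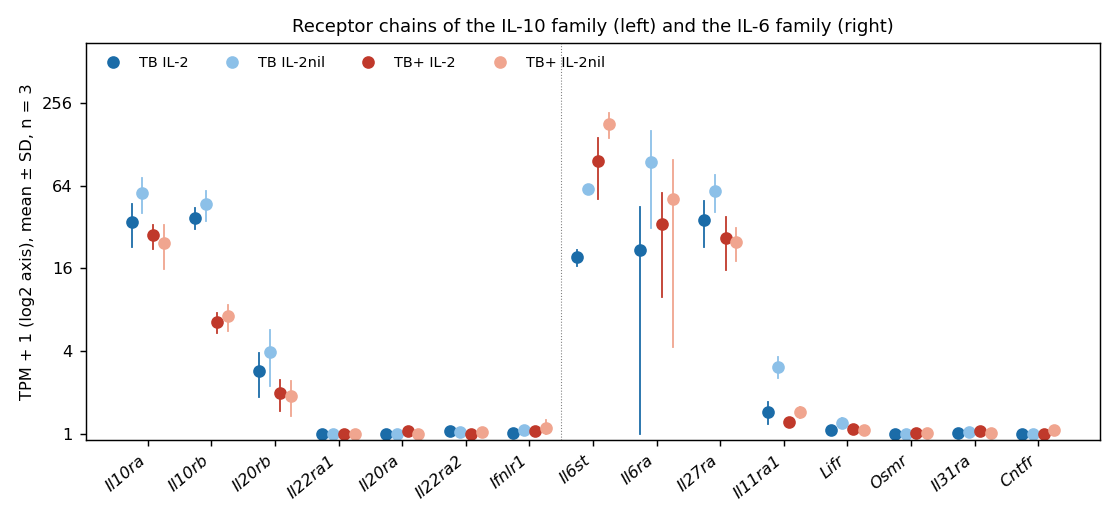
Mean TPM + 1 on a log2 axis with SD over 3 libraries (lower ends cut at 0 TPM) of the 7 receptor chains of the IL-10 family and 8 of the 9 of the IL-6 family in the 4 groups. *Il10rb* is low in both TB+ groups, *Il6st* is lowest in TB IL-2 and highest in TB+ IL-2nil, and *Il22ra1*, *Lifr*, *Osmr* and *Il31ra* lie at the foot of the axis in every group.

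Among 16 genes of JAK-STAT signalling and its feedback, all tested, 3 were called at rest, where 7.42% of all genes were called, and all 3 were higher with IL-2, namely *Cish*, *Socs2* and *Socs1*, feedback inhibitors of cytokine signalling, at log2 differences of 3.59 ± 0.43, 2.74 ± 0.37 and 2.02 ± 0.44 (adjusted P = 0.00018, 0.000358 and 0.00434, limma). After quantile normalization 5 were called, these 3 as higher and *Jak1* and *Jak2* as lower, where 8.46% of all genes were called. After PMA/I in IL-2, 2 rose and 1 fell, where 3.94% and 3.1% of all genes did. *Jak2*, the kinase of several cytokine receptors, was at 51.9, 28.4 and 35.4 TPM in TB IL-2 and at 710, 722 and 441 TPM in TB+ IL-2, a rise of 3.99 ± 0.28 (adjusted P = 3.65e-06). *Stat5a* rose by 1.63 ± 0.37 (adjusted P = 0.00619) and *Pias3* fell, at -1.65 ± 0.32 (adjusted P = 0.00251). The settings moved this count. It was 1 (*Jak2*) with 5 TPM added, 6 without the library labelled TB IL-2nil replicate 3, 6 without both relocated libraries and 6 without TB IL-2 replicate 3. Of all genes, 3.53%, 8.41%, 8.45% and 7.06% were called in these fits, against 7.04%. The *Stat5a* call was lost for TPM with no further scaling, at 1.55, and without TB IL-2 replicate 3, at 1.56, or TB+ IL-2 replicate 2, at 1.28. That of *Pias3* was lost after quantile normalization, at -1.32, with no filter on low values, at -1.55, and without TB IL-2 replicate 1, at -1.35, or TB+ IL-2 replicates 1 or 2, at -1.57 and -1.56.

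Without IL-2, 6 of the 16 rose after PMA/I and 2 fell, where 7.78% and 10.7% of all genes did, the largest changes being those of *Cish* at 5.27 ± 0.43, *Jak2* at 3.32 ± 0.28, the kinase gene *Pim1* at 2.91 ± 0.36 and *Socs3* at 2.84 ± 0.26 (adjusted P = 3.78e-06, 5.18e-06, 5.41e-05 and 8.63e-06, limma). Between the stimulated groups, where 3.62% of all genes were called, *Socs1* alone was called, lower with IL-2 at -1.94 ± 0.44 (adjusted P = 0.0107, limma). It was not called without TB+ IL-2nil replicate 1, at -1.58, nor for TPM with no further scaling, at -1.54, where 2.87% and 5.13% of all genes were called. Without TB+ IL-2 replicate 1 or TB+ IL-2nil replicate 2, *Socs1* and *Socs3* were both called lower, where 3.88% and 4.12% of all genes were called. The interaction was called for *Cish* at -4.46 ± 0.60, *Socs1* at -3.96 ± 0.62 and *Socs3* at -2.45 ± 0.37 (adjusted P = 0.0108, 0.0125 and 0.0122, limma), the sign found for *Lif*. Of all genes, 4.23% were called in the interaction. Without both relocated libraries *Cish* alone was called, with the block *Socs2* was called as well, and for TPM with no further scaling none was, at -3.99, -3.49 and -1.98 (adjusted P = 0.0557, 0.0557 and 0.108, limma). In these fits the shares of all genes called were 0.0324%, 11.9% and 0.00804%.

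The levels of *Cish* are given for comparison with *Lif*. It was at 157, 197 and 145 TPM in TB IL-2, at 15.5, 5.11 and 25.1 TPM in TB IL-2nil, at 363, 229 and 290.4 TPM in TB+ IL-2 and at 659.7, 432 and 524 TPM in TB+ IL-2nil. IL-2 thus separated the resting groups, and stimulated cells without IL-2 had the highest level, without overlap with the stimulated cells in IL-2. That last difference was -0.87 ± 0.43 (adjusted P = 0.17, limma) and was not called.

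Of 12 T cell factors known to act at *Il10* or *Il22*, all tested, none was called between the resting groups or between the stimulated groups, where 7.42% and 3.62% of all genes were called. After PMA/I in IL-2, 4 rose, where 3.94% of all genes did, which were *Irf4* at 4.92 ± 0.37, *Tbx21*, the T-bet gene, at 3.36 ± 0.45, *Ahr*, the aryl hydrocarbon receptor gene, at 2.15 ± 0.42 and *Rora* at 1.59 ± 0.37 (adjusted P = 5.66e-06, 0.000291, 0.0027 and 0.00687, limma). The *Rora* call was lost without TB IL-2 replicate 2 or 3, TB IL-2nil replicate 1 or TB+ IL-2 replicate 1, at 1.28, 1.53, 1.58 and 1.27. It was also lost for TPM with no further scaling, at 1.495, and with a filter of over 1 TPM in at least 3 libraries, at 1.572. With 5 TPM added *Irf4* and *Tbx21* alone were called, where 3.53% of all genes were called against 7.04%. Without IL-2, 5 rose and 1 fell, where 7.78% and 10.7% of all genes did. *Irf4* was at 6.33 ± 0.37, *Tbx21* at 4.70 ± 0.45, *Ahr* at 4.47 ± 0.42 and *Nfil3* at 2.40 ± 0.26, with *Gata3* the other that rose, and *Ets1* fell, at -1.75 ± 0.14 (adjusted P = 3.09e-06), but was under 3-fold with no filter on low values, at -1.55. *Maf* and *Prdm1*, factors of IL-10 producing T cells, were not called, at group means of 4.99 to 23.3 TPM and of 5.25 to 12.4 TPM. Single libraries decided this for *Maf*, which was called lower with IL-2 at rest without TB IL-2 replicate 2 or TB IL-2nil replicate 1 and with 0.1 TPM added, and between the stimulated groups without TB+ IL-2nil replicate 1. *Rora* was likewise called lower with IL-2 at rest without TB IL-2 replicate 1 or TB IL-2nil replicate 2 and with 0.1 TPM added, and *Ets1* after quantile normalization.

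In the interaction, where 4.23% of all genes were called, *Ets1* was called among these factors, at 1.19 ± 0.19 (adjusted P = 0.0145, limma). It was not called without both relocated libraries, at 1.25 (adjusted P = 0.0768, limma), where 0.0324% of all genes were called. With the replicate block, and with 5 TPM added, *Ahr* and *Gata3* were called as well, *Ahr* also after quantile normalization or with a filter of over 1 TPM in at least 3 libraries, *Gata3* also without TB+ IL-2nil replicate 3, and for TPM with no further scaling none was. Under the labels as deposited, the ligand, receptor, JAK-STAT and factor lists gave no call at rest or between the stimulated groups, *Il6st* alone after PMA/I in IL-2, and *Socs1*, *Socs3*, *Pim1* and *Gata3* after PMA/I without IL-2.

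Over the 12 libraries, which are 4 groups that share their libraries and depths, the log2(TPM + 1) values of *Il10* and *Il31* had a Pearson correlation of 0.968, the highest among the members, and that of *Il22* and *Il24* was 0.907. *Osm* was negatively related to every other member, from -0.723 with *Il10* to -0.435 with *Il22*, and to its neighbour *Lif* at -0.44. Among all genes tested, those most like *Il10* were *Atf3*, a stress-induced transcription factor, *Tnfsf14* and *Nfkbid*, at 0.995, 0.995 and 0.994. *Il31* was nearest to *Lipg*, *Olr1* and the cytokine gene *Il3* (0.995, 0.992 and 0.992), and *Il24* to *Chac1*, *Slc1a4* and *Map9* (0.988, 0.975 and 0.953). Among the genes most like *Lif* were *Cyp51*, an enzyme of cholesterol synthesis, and *Slc7a1*, a transporter of basic amino acids (0.986 and 0.983). *Il22* was nearest to *Sox5os3*, *Plscr2* and *Gm5532* (0.962, 0.95 and 0.943), and *Osm* to *Fgl2*, *1700066B19Rik* and *A430005L14Rik* (0.96, 0.954 and 0.94). These are descriptions over 12 points that the 4 groups dominate, and no P is attached to them.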

How the data were processed

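RNA-Seq values of 12 libraries, 3 in each of 4 groups, were used as deposited. Per the labels, the authors' processing used Trimmomatic 0.32, HISAT2 2.1.0 and StringTie 1.3.3 on mm9, and libraries were directional. The deposited values are FPKM for 24439 genes, with no normalization between libraries and no counts. The methods name TPM, which the planned tests assumed, but the FPKM of a library summed to 193815 to 420487. No interval or detection limit based on counts is given. From the steps between low values the deepest library was 3.05-fold deeper than the shallowest, TB IL-2nil replicate 2. For the time in IL-2 before withdrawal the labels give about 2 days and the methods a shorter time.

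Here FPKM were turned into TPM (1000000 per library). A gene was tested if any library held over 1 TPM, and upper quartiles (percentile 75) were made equal between libraries. The values, as log2(TPM + 1), went into 1 limma fit (3.58.1, R 4.3.3) of 4 groups with neither block nor trend. The added 1 shrinks log2 differences of low genes. A call was over 3-fold with adjusted P under 0.05 (Benjamini-Hochberg, 12442 genes tested), except that for the interaction the P sufficed. The fit was tested on simulated data without pairing, with changes placed only in genes well above the filter on average. Changes in low genes were not covered.

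The 2 relocated libraries follow the authors' combined table. Its values were compared with quantile-normalized TPM, and a gene was counted as met where they differed by at most 0.1%. For each of its 12 columns the best library met at least 99.86% of 1391 genes and the next at most 1.58%, and in the columns of TB IL-2nil replicate 3 and TB+ IL-2 replicate 3 no more than 0.0719% were met by the library so labelled. Placed so, same-numbered libraries deviated together from their group means (18 of 18 correlations over 0.1, from 0.101 to 0.531), so the numbers, which come from the labels, pair the samples. The 36 correlations of unlike numbers ran from -0.416 to 0.171.

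Named genes were the members, the ligand and receptor lists, list genes called in a comparison (at most 4 by size, with others named where a single library decides them), tested genes within 100 kb of a member and the 3 genes most correlated with each. A few of these genes are counted with their lists but not reported here. Members and lists were chosen with earlier results of these data known. Positions are from GENCODE M1, while the authors quantified other gene models. Alternatives covered placement, pseudocount, filter, scaling, trend, block, groups fitted and each library left out. Those for the gene lists were added after seeing the data.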

Additional observations from a re-analysis of the deposited data

Results flagged for a closer look

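The effect of IL-2 on *Lif* differed before and after PMA/I, which is why it is listed here. The IL-2 difference after stimulation minus that before it was -4.80 on the log2(TPM + 1) scale with a 95% interval from -6.68 to -2.93 (adjusted P = 0.0198, limma interaction over all genes), and in the 5 alternatives that ended the call the adjusted P was 0.0527 to 0.0824, and with the labels kept it was 0.914. At rest *Lif* was higher with IL-2 at all 3 replicate numbers, and after PMA/I it was lower with IL-2 at all 3, where the difference of -0.60 did not pass the test (adjusted P = 0.515). B cell markers also differed between these groups, and their part in the *Lif* result was not tested.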

How the results depend on the processing

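With the libraries in the groups of their labels, the counts of members called were 0 at rest, 1 and 0 after PMA/I with and without IL-2, 0 between the stimulated groups and 0 in the interaction, against 2, 6, 4, 1 and 1 as placed. Of all genes, 12, 44, 255, 15 and 0 were called under the labels, against 923, 876, 2296, 451 and 526 as placed. The signs of *Il10* (-1.30) and *Il24* (-0.19) at rest and of *Il31* between the stimulated groups (-0.97) turned under the labels. Between the stimulated groups the count of 1 became 2 without both relocated libraries, 0 with 5 TPM added, 3 for TPM with no further scaling, 3 with the replicate block and 0 when only the 2 groups were fitted, and it ranged from 0 to 3 with single libraries left out. The genes called among all tested were 451, in these 5 fits 342, 210, 638, 488 and 420, and 357 to 512 with single libraries left out. The members called in these counts were *Il22*, *Il24* or *Il31*, of which *Il22* and *Il31* passed the filter only through stimulated cells. The interaction count of 1 became 0 without both relocated libraries and 0 for TPM with no further scaling, and ranged from 0 to 1 with single libraries left out. Among all genes, 526 were called in the interaction, 4 and 1 in these fits, 1478 with the replicate block and 84 to 1302 with single libraries left out. The *Il24* interaction turned to -1.69 with 0.1 TPM added and ranged from -0.39 (without TB+ IL-2 replicate 2) to 1.08 with single libraries left out, and *Lif* between the stimulated groups ranged from -1.23 to 0.017 (without TB+ IL-2nil replicate 1). The replicate block changed no other call of a member. The cause of these changes was not tested.

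TPM with no further scaling moved the median of all genes by -0.4 after PMA/I without IL-2, by 0.27 between the stimulated groups and by 0.35 in the interaction, and quantile normalization moved it by 0.11 and 0.24 after PMA/I with and without IL-2. The share of higher genes among those called after PMA/I without IL-2 was 42.2%, 20.1% for unscaled TPM and 58.4% after quantile normalization, and 55.9%, 50.7% and 69.9% with IL-2. No called gene of the lists changed sign under any alternative run. Depth is given by no count, so differences of genes near 1 TPM, such as *Il22*, cannot be weighed against counting error.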
